A study of Mus musculus with 15 samples.

Results

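The Cyp2c cluster is a run of related cytochrome P450 genes on mouse chromosome 19, and 10 of its genes were described across the groups of the study. They were chosen by symbol (Cyp2c29, Cyp2c37, Cyp2c38, Cyp2c39, Cyp2c40, Cyp2c50, Cyp2c54, Cyp2c55, Cyp2c69 and Cyp2c70), after the Ensembl gene IDs of the deposited table had been matched to the GENCODE M21 annotation. They are 10 of 54281 genes in the table and 10 of the 11568 genes that passed the filter on low values, so no member was lost to that filter. The annotation holds 8 other Cyp2c genes, 3 of them pseudogenes. By position the label held: the members lie within 1180 kb of chromosome 19 (GRCm38), 5 on each strand.

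RNA was sequenced from whole livers of 15 male C57BL6J mice aged 9.5 months, with 1 library per animal. Mice on chow had received only vehicle at 2 weeks of age and then either saline (chow saline, n = 3) or MCOPPB (chow MCOPPB, n = 5). The other mice had received 25 mg/kg of diethylnitrosamine (DEN), a liver carcinogen, at 2 weeks of age, followed by 32 weeks of a high-fat diet (HFD) with 60% of energy from fat, and then either saline (DEN/HFD saline, n = 4) or MCOPPB (DEN/HFD MCOPPB, n = 3). MCOPPB, which binds the receptor for nociceptin (orphanin FQ), was injected into the abdomen at 5 mg/kg for 5 days with 2 days of washout per cycle, for 3 cycles. The carcinogen and the diet were always given together, so their contributions cannot be told apart. The design asks how MCOPPB changes the liver transcriptome on chow and in this fatty liver model.

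Cytochrome P450 enzymes of the Cyp2c subfamily sit in the endoplasmic reticulum, take electrons from P450 oxidoreductase (Por) and hydroxylate or epoxidise drugs, steroids, retinoids and polyunsaturated fatty acids such as arachidonic acid. In mouse liver they are made mainly by hepatocytes. Several members are controlled by the xenobiotic receptors CAR (Nr1i3) and PXR (Nr1i2) and by HNF4A, and several differ between males and females under the pattern of growth hormone secretion. Cyp2c40 and Cyp2c69 are known as female-predominant genes in mouse liver. Cyp2c70 stands apart in function, since it makes the muricholic acids of mouse bile.

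The findings turn on a pair of neighbouring genes of nearly the same sequence, Cyp2c40 (ENSMUSG00000025004.16, chr19:39767071-39812814, minus strand) and Cyp2c69 (ENSMUSG00000092008.2, chr19:39842814-39886799, minus strand). Their coding sequences differed at 31 of 1476 aligned bases, an identity of 97.9%, against a median of 77.5% (range 65.2% to 97.9%) over the 45 pairs of members. This closeness is not particular to the pair: their neighbours Cyp2c67 and Cyp2c68, which are no members and were far more abundant in chow saline livers, were 97.7% and 98.1% identical to Cyp2c40 and 97.7% and 96.5% identical to Cyp2c69. Of the 75-base windows of the Cyp2c40 and Cyp2c69 alignment without a gap, 40.3% were identical. Reads were 75 nt long, so many reads of these genes cannot be assigned by sequence to only 1 of them. Over all annotated transcripts, 45.9% of the 75-base windows of Cyp2c40 and 42.6% of those of Cyp2c69 also occurred in another Cyp2c gene; 24.7% of those of Cyp2c67 and 23.2% of those of Cyp2c68 occurred in Cyp2c40. The share of windows found in any other gene was 36.0% for Cyp2c67 and 28.5% for Cyp2c68. Among the other members it was 14.1% for Cyp2c54, 13.8% for Cyp2c37 and 10.4% for Cyp2c50. It was 2.98% for Cyp2c39, 2.46% for Cyp2c29, 1.86% for Cyp2c38, and 0 for Cyp2c55 and Cyp2c70. How the submitters' counting treated such reads is not given in the sources used here. The windows below are those of the coding sequence in which the pair differs most, at 8 bases, given in capitals (bases 1109 to 1183 of Cyp2c40 and 1022 to 1096 of Cyp2c69).
Cyp2c40 coding window: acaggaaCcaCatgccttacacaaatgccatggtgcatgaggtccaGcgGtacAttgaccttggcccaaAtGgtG
Cyp2c69 coding window: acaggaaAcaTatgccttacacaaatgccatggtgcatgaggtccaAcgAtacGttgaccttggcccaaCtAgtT
A read from this window can be assigned to 1 gene of the pair, whereas a read from one of the identical windows cannot.

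The pair also shares its promoter. Over 220 aligned bases upstream of the RefSeq gene starts the identity was 98.6%, with 3 differences. This likeness is not particular to the pair. The windows of the non-members Cyp2c68 and Cyp2c67 were 95.4% and 93.5% identical to that of Cyp2c40 (216 and 169 aligned bases). To that of Cyp2c69 they were 93.55% and 93.47% identical (248 and 199 aligned bases). The 250 bases upstream of each start (RefSeq, GRCm38.p6, each on the minus strand) are shown because these members had similar values across the groups. Capitals mark the letters CAAAGTCCA, an HNF4 motif. The Cyp2c40 window is chr19:39812815-39813064 and the Cyp2c69 window is chr19:39886770-39887019.
Cyp2c40 promoter: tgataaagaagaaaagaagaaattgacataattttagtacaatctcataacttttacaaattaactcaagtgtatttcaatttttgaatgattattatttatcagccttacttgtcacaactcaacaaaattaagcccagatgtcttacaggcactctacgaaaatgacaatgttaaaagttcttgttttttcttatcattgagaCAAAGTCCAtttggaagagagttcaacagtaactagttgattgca
Cyp2c69 promoter: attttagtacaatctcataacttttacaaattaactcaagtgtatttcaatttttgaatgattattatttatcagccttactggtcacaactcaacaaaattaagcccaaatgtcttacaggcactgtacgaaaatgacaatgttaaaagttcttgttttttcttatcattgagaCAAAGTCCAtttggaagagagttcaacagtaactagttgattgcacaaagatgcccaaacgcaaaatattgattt
A promoter sequence was at hand for 9 of the 10 members; Cyp2c54 had none. On either strand, CAAAGTCCA was found in 3 of the 9, namely Cyp2c40 (positions -45 to -37 from the RefSeq start), Cyp2c69 (-75 to -67) and Cyp2c70 (-64 to -56), and in 0.387% of 32536 mouse promoter windows of the same length. It also occurred in the windows of Cyp2c65, Cyp2c67 and Cyp2c68, which are not members. The half-site AGTTCA, which CAR and PXR can bind, was found in Cyp2c39, Cyp2c40, Cyp2c50 and Cyp2c69 (4 of 9, 11.8% of all windows). The FOXA motif TGTTTAC was found in Cyp2c38 and Cyp2c39, and the C/EBP motif TTGCNNAA in Cyp2c37 and Cyp2c69 (3.17% and 9.57% of all windows). The letters TATAAA were found in Cyp2c29, Cyp2c38, Cyp2c55 and Cyp2c70 (12.3% of all windows). The motifs searched for STAT5 (TTCNNNGAA), BCL6 (TTCCTNGAA), HNF6 and CUX2 (ATCGAT) and HNF1 (by name) had no match in these 9 windows, and were found in 7.04%, 1.32%, 0.735% and 0.375% of all windows. The CAAAGTCCA match overlapped none of the others in the pair.

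Facts of the whole series that bear on the members are few. The deposited values are variance-stabilised levels on a log2 scale, and they were also converted back to normalized counts, on which the levels below are given. Depth was estimated at 9320000 to 18700000 assigned reads per library. Mitochondrial transcripts made up 12.01% to 30.95% of counts, with ranges that overlapped between the groups. Summed hepatocyte markers (8 of 8 found in every group) lay between 1763510 and 3974060 normalized counts in every library, and the 3 kidney markers were at 0. Markers of other tissues were not all absent. Summed adipose markers lay between 0 and 218 normalized counts in chow saline livers and reached 54.0 in chow MCOPPB livers. Over all libraries, summed pancreas markers lay between 65.8 and 318 and summed intestine markers between 11.8 and 141. By group means these sums came almost wholly from Cela1 and Lgals4. The other pancreas markers, Prss2, Cpa1 and Pnlip, reached at most 1.05, 10.9 and 9.21 normalized counts in any library. Of the other intestine markers, Vil1 reached at most 26.5 and Cdx2 was at 0 in every library. RNA integrity (RIN) has a pair of labels per library. By the first, chow MCOPPB livers (9.9 to 10) lay above those with saline on chow (9 to 9.7) and, under DEN/HFD, with saline (8.4 to 9.2) or MCOPPB (8.7 to 9.2), whereas by the second label the groups overlapped, with 8.9 to 9.6 in chow MCOPPB. In whole liver, fewer cells of a type and less RNA per cell cannot be told apart.

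Per kilobase of transcript, Cyp2c29 and Cyp2c50 had the highest means among the 10 members. In chow saline livers the mean normalized counts per kb were 5559 ± 2131 (SD, n = 3) for Cyp2c29, an enzyme of drugs and arachidonic acid, and 4176 ± 774 for Cyp2c50, an arachidonic acid epoxygenase. Their ranges overlapped. Cyp2c54, Cyp2c70 and Cyp2c37 followed at 1671 ± 467, 1639 ± 219 and 1630 ± 321 normalized counts per kb, below Cyp2c50 without overlap and not separated from one another. The cluster genes Cyp2c67 and Cyp2c68, which are no members, stood at 2508 ± 162 and 1339 ± 203 per kb in these livers. Cyp2c38 stood alone at 186 ± 20.5, with no overlap to the member above or below it. The lowest 4 were Cyp2c40 (42.6 ± 21.4), Cyp2c69 (10.7 ± 11.9), Cyp2c55 (7.51 ± 2.18) and Cyp2c39 (6.23 ± 6.35), each overlapping the next.
The order changed in the other groups. In chow MCOPPB livers Cyp2c40 stood sixth at 580 ± 250 normalized counts per kb (n = 5), above Cyp2c38 at 405 ± 100 and Cyp2c69 at 311 ± 186, with overlapping ranges. In DEN/HFD MCOPPB livers Cyp2c50 was first at 2456 ± 940 per kb (n = 3), overlapping Cyp2c29 at 1889 ± 290, and Cyp2c38 (650 ± 229) stood above Cyp2c54 (342 ± 351). Together the members took 0.227% ± 0.0128 (SD, n = 3) of the counts of nuclear-genome transcripts in chow saline and 0.333% ± 0.0826 (n = 5) in chow MCOPPB livers. Under DEN/HFD the share was 0.140% ± 0.0494 (n = 4) with saline and 0.135% ± 0.0241 (n = 3) with MCOPPB. Each of the 8 chow livers (0.214% to 0.421%) lay above each DEN/HFD liver (0.0995% to 0.206%) in this share. Of all counts, mitochondrial ones included, the ranges overlapped: DEN/HFD saline replicate 4, at 0.181%, was above chow saline replicate 2 (0.152%) and chow MCOPPB replicate 4 (0.175%). Its summed normalized counts of the members (34524) were also above those of the 3 chow saline livers (23747 to 32530). These shares were not tested.

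**Figure D1:**
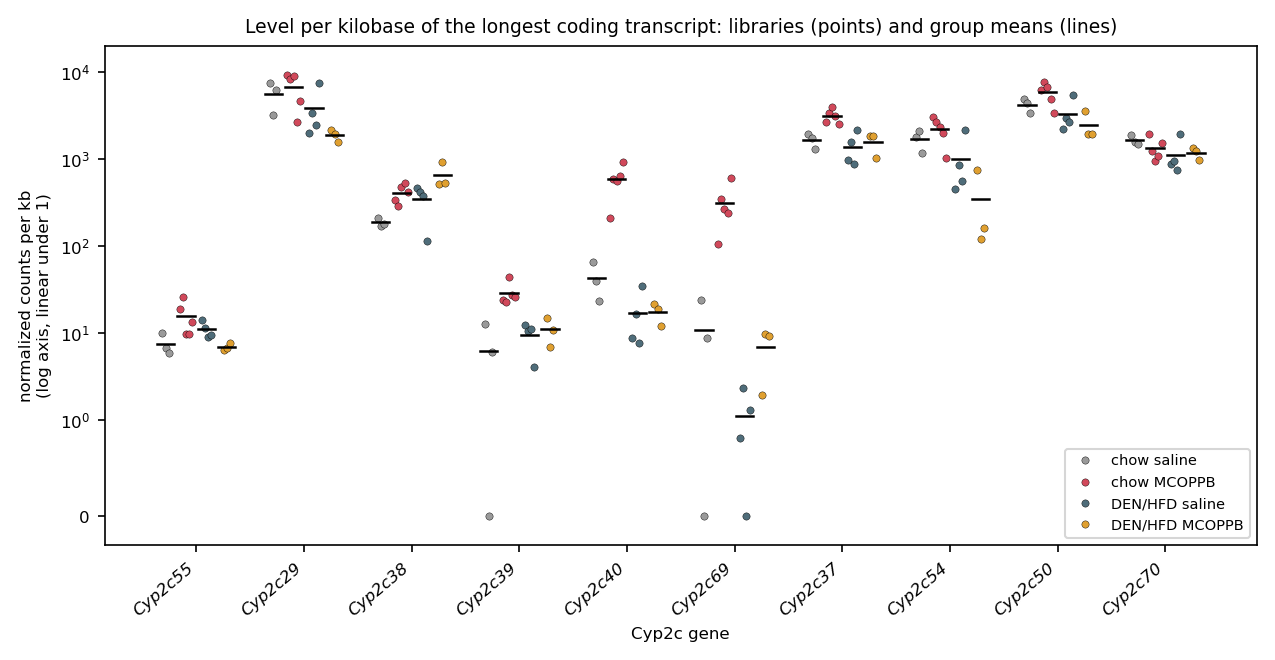
Normalized counts per kilobase of the longest coding transcript (log axis, linear under 1) for the 10 members, 1 point per library in each of the 4 groups, with lines at the group means. Cyp2c29 and Cyp2c50 are highest, and Cyp2c40 and Cyp2c69 in chow MCOPPB livers lie far above the same genes in the other groups.

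On chow, MCOPPB raised 2 members, Cyp2c40 and Cyp2c69, and the change was large for both. Cyp2c40, which hydroxylates arachidonic acid, had normalized counts of 118, 70.0 and 42.2 in the 3 chow saline livers and 378, 1056, 1002, 1145 and 1643 in the 5 chow MCOPPB livers. The groups did not overlap, and the mean was 13.6 times higher with MCOPPB. The difference was 2.81 ± 0.32 (log2 scale, SE; adjusted p = 0.000175, limma). Cyp2c69 had normalized counts of 38.8, 0 and 14.2 in chow saline livers and 171, 568, 437, 389 and 998 with MCOPPB. Its groups did not overlap either, and the lowest value of both genes with MCOPPB came from the same animal, replicate 1. The difference was 2.88 ± 0.35 (adjusted p = 0.000321, limma). In this comparison 0.32% of all tested genes were called in either direction at an adjusted p under 0.05 (0.156% higher), against 2 of the 10 members. Cyp2c69 passed the filter on low values only with the chow MCOPPB livers. For this gene the shares over tested genes are no independent measure.
The remaining 8 members were not called on chow. Cyp2c37, which hydroxylates arachidonic acid, had normalized counts of 3471, 3122 and 2329 with saline and 4840, 6093, 7208, 5697 and 4543 with MCOPPB. The groups did not overlap and the mean was 1.91 times higher, with a difference of 0.91 ± 0.28 (adjusted p = 0.258, limma). Cyp2c38, an arachidonic acid epoxygenase, stood at 600, 489 and 513 with saline and at 950, 814, 1349, 1522 and 1175 with MCOPPB. These groups also lay apart, with a difference of 0.98 ± 0.33 (adjusted p = 0.333).
Cyp2c39, which acts on retinoic acid, was scarce, at 23.1, 0 and 10.9 normalized counts with saline and 43.4, 41.5, 79.7, 49.3 and 46.5 with MCOPPB. The groups did not overlap, and the difference of 0.90 ± 0.21 missed the threshold (adjusted p = 0.0974, limma). Without the highest saline liver, replicate 1, the difference of Cyp2c39 was 1.12 with an adjusted p of 0.0326, so that 3 members were called. Calls among all tested genes rose from 37 to 50 in that fit. In all, 5 members had groups that did not overlap, all higher, where 4.77% of all tested genes had such groups in either direction and 2.64% on the higher side. One of these members is Cyp2c69, for which these shares too are no independent measure.
Cyp2c50 (0.43 ± 0.31), Cyp2c54 (0.34 ± 0.50), Cyp2c55 (0.32 ± 0.16) and Cyp2c29 (0.21 ± 0.43) had positive differences and overlapping groups. Cyp2c70, the bile acid enzyme, had the only negative one (-0.33 ± 0.27, adjusted p = 0.765, limma). The median difference of the members was 0.66, beside 0.0012 over all tested genes. Summed macrophage markers (6 of 6 found) lay between 689 and 1015 normalized counts in chow saline and between 1450 and 2736 in chow MCOPPB livers, and summed endothelial markers (4 of 4 found) between 517 and 682 and between 693 and 905. Their part in the differences of the members was not tested. With the first RIN label as a covariate, Cyp2c40 and Cyp2c69 were again called on chow, with differences of 2.74 ± 0.48 and 3.20 ± 0.52 (adjusted p = 0.0319 and 0.0154, limma).

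**Figure D2:**
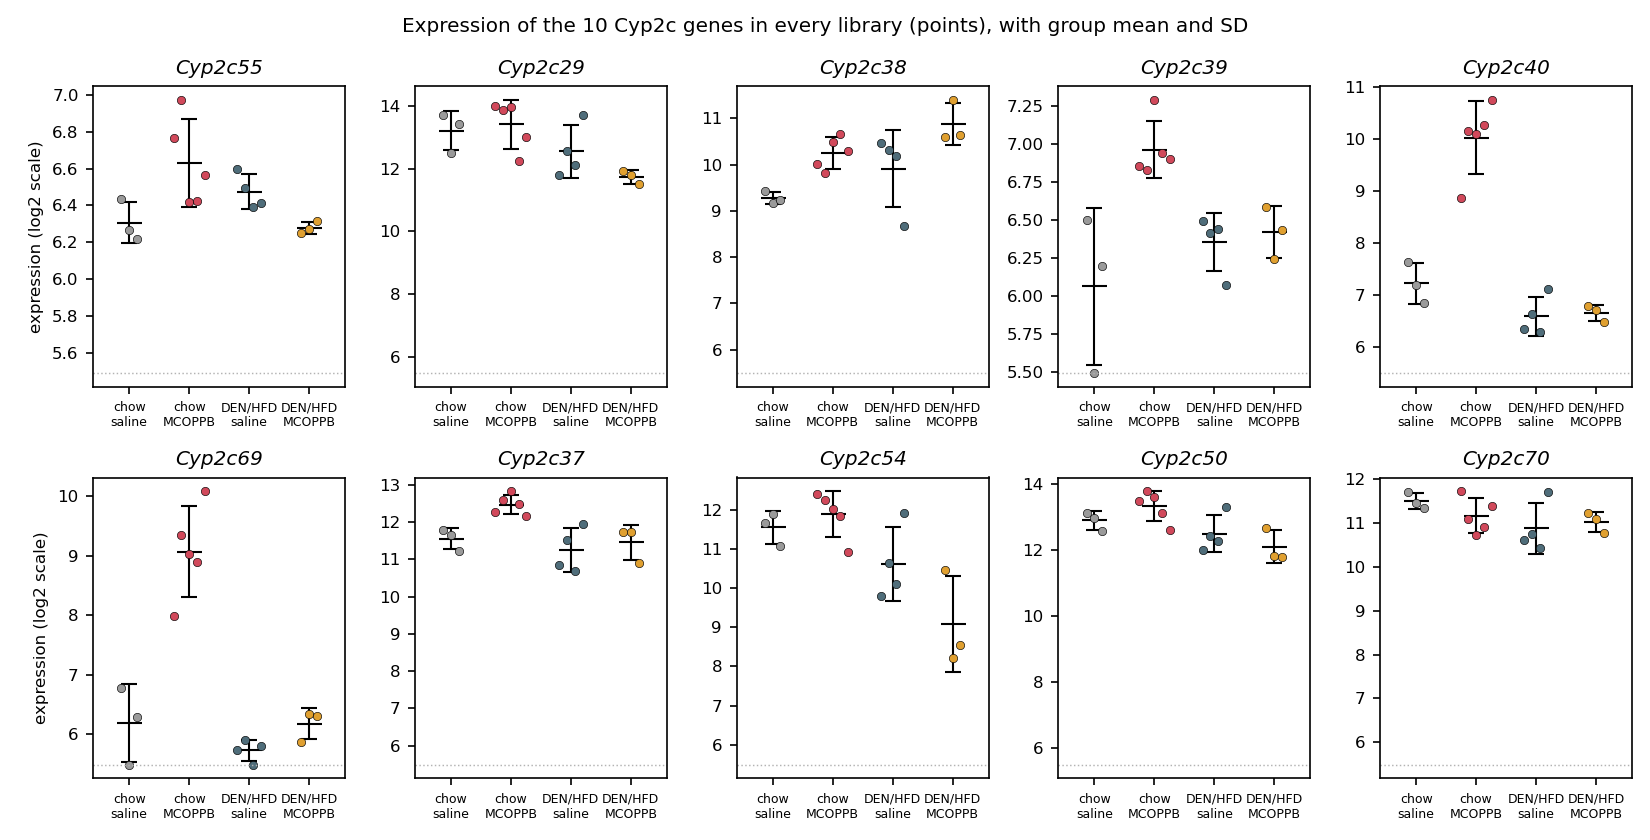
Deposited log2-scale values (vertical axis, its own range per panel) of each member in each library (points), by group, with the group mean and SD; the dotted line is the lowest value of the table, which stands for 0 reads. Cyp2c40 and Cyp2c69 form a separate high group in the 5 chow MCOPPB livers, while Cyp2c54 is lowest in DEN/HFD MCOPPB livers and 1 DEN/HFD saline liver departs from its group for several members.

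Under DEN/HFD, no member was called for MCOPPB against saline, where 0.0259% of all tested genes were. Cyp2c40 was low in both groups, at 15.9, 29.7, 13.7 and 62.2 normalized counts with saline and 38.1, 33.9 and 21.5 with MCOPPB. The ranges overlapped and the difference was 0.06 ± 0.33 (adjusted p = 1.000, limma). Cyp2c69 stood at 1.33, 3.79, 0 and 2.11 with saline and 3.18, 16.0 and 15.1 with MCOPPB, with a difference of 0.44 ± 0.36. At a few normalized counts per library, the depth limits which differences in Cyp2c69 can be detected here.
Cyp2c38 was higher in every DEN/HFD MCOPPB liver (1453, 2625 and 1520 normalized counts) than in every DEN/HFD saline liver (1337, 1187, 1080 and 326). Its difference of 0.97 ± 0.35 was close in size to that on chow (0.98 ± 0.33) but not called (adjusted p = 0.853, limma). It rested in part on the low DEN/HFD saline replicate 4: without that liver the difference of Cyp2c38 was 0.55 ± 0.25 under DEN/HFD. Cyp2c55, at 12.7 to 15.1 against 18.0 to 27.9 normalized counts, was the other member whose groups did not overlap, and it was lower with MCOPPB (-0.20 ± 0.17). Such groups were found for 6.96% of all tested genes. Cyp2c38 and Cyp2c54 were the 2 members with an unadjusted p under 0.05, beside 548 of the 11568 tested genes.
Cyp2c54, an arachidonic acid epoxygenase, had the largest difference of the members here, -1.54 ± 0.52 (adjusted p = 0.761, limma). It ranged from 213 to 1333 normalized counts with MCOPPB and from 798 to 3787 with saline. Cyp2c29 (-0.80 ± 0.45) and Cyp2c50 (-0.39 ± 0.33) were also on the negative side, and Cyp2c37 (0.21 ± 0.29), Cyp2c70 (0.15 ± 0.28) and Cyp2c39 (0.07 ± 0.22) on the positive side. The median over the members was 0.06, beside -0.0038 over all tested genes.

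The MCOPPB effect differed between the diets for 1 member, Cyp2c40. The effect under DEN/HFD minus that on chow was -2.74 ± 0.46 (adjusted p = 0.0394, limma), where 0.0692% of all tested genes were called for this difference (0.0432% on the negative side). The call is a narrow one: it was lost in 6 of the 9 other settings and in 12 of the 15 fits without 1 library. The sign was the same in all of these fits, and the adjusted p of the fits without 1 library ranged from 0.000671 to 0.156; it held without chow MCOPPB replicate 1 or 4 and without DEN/HFD saline replicate 3. For Cyp2c69 the difference of effects was -2.44 ± 0.50 (adjusted p = 0.113), and without chow MCOPPB replicate 1 it was -2.71 with an adjusted p of 0.0218. For Cyp2c54 it was -1.88 ± 0.72 (adjusted p = 0.759), and for Cyp2c38 -0.02 ± 0.48. A missed threshold does not show that these effects are alike. Of the 10 members, 9 had a smaller or more negative MCOPPB effect under DEN/HFD, Cyp2c70 being the exception.

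Without MCOPPB, DEN/HFD livers did not differ from chow livers in any member at the threshold, where 0.0519% of all tested genes were called. Cyp2c70 had normalized counts of 3236, 2697 and 2511 in chow saline livers and 1480, 1623, 1281 and 3270 in DEN/HFD saline livers. In 3 of the 4 DEN/HFD livers it was below every chow liver, but replicate 4 was above them all. The difference of -0.62 ± 0.28 had the only unadjusted p under 0.05 among the members (0.0417; adjusted p = 0.429, limma). Of the 11568 tested genes, 1268 had such a p, a share much like this 1 of 10 members.
Cyp2c54 (-0.93 ± 0.52), Cyp2c29 (-0.66 ± 0.45), Cyp2c40 (-0.63 ± 0.33), Cyp2c69 (-0.45 ± 0.36), Cyp2c50 (-0.41 ± 0.33) and Cyp2c37 (-0.31 ± 0.29) had negative differences as well. Cyp2c38 (0.64 ± 0.35), Cyp2c39 (0.29 ± 0.22) and Cyp2c55 (0.17 ± 0.17) had positive ones. No member had groups that did not overlap, against 9.09% of all tested genes. DEN/HFD saline replicate 4 decided much of this overlap: within its group it was the highest in Cyp2c29, Cyp2c37, Cyp2c40, Cyp2c50, Cyp2c54 and Cyp2c70 and the lowest in Cyp2c38 and Cyp2c39.

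Among MCOPPB-treated animals, DEN/HFD livers were lower than chow livers in 3 members, Cyp2c40, Cyp2c69 and Cyp2c54. In this comparison 0.571% of all tested genes were called in either direction and 0.346% as lower. It shares the chow MCOPPB animals with the comparison on chow and the DEN/HFD MCOPPB animals with the comparison under DEN/HFD, so that their values are not independent. Cyp2c40 averaged 1045 ± 451 normalized counts (SD, n = 5) on chow and 31.2 ± 8.63 (n = 3) under DEN/HFD, a 33.5-fold lower mean. The groups did not overlap, and the difference of -3.38 ± 0.32 (adjusted p = 5.71e-05, limma) had the smallest p of all tested genes. Cyp2c69 averaged 512 ± 306 and 11.4 ± 7.13 normalized counts, again without overlap, with a difference of -2.89 ± 0.35 (adjusted p = 0.000469). Here too, Cyp2c69 was among the tested genes through its chow MCOPPB values.
Cyp2c54 (ENSMUSG00000067225.2, chr19:40037940-40073827, minus strand) had normalized counts of 5361, 4777, 4084, 3553 and 1843 in chow MCOPPB livers and 1333, 213 and 286 in DEN/HFD MCOPPB livers. Every DEN/HFD liver lay below every chow liver, and the mean was 6.43 times lower. The difference was -2.81 ± 0.50 (adjusted p = 0.0152, limma). This call rested on both low animals: without DEN/HFD MCOPPB replicate 2 its adjusted p was 0.0976, and without replicate 3 it was 0.163.
Cyp2c29 stood at 16278, 14821, 15970, 4722 and 8163 normalized counts in chow MCOPPB livers and at 3834, 3460 and 2811 in DEN/HFD MCOPPB livers. The groups did not overlap, and the difference of -1.67 ± 0.43 was not called (adjusted p = 0.0921, limma). It had an adjusted p of 0.0316 without chow MCOPPB replicate 4, the lowest of its group, and of 0.0370 without DEN/HFD saline replicate 4. Cyp2c50 averaged 10465 ± 3017 and 4451 ± 1704 normalized counts, with overlapping groups and a difference of -1.22 ± 0.31 (adjusted p = 0.0869). Without DEN/HFD saline replicate 4, which enters only through the shared estimate of the spread, Cyp2c50 too was called, and the count of members rose to 5. Calls among all tested genes rose as well in that fit, from 66 to 157.
Cyp2c37 (-1.01 ± 0.28, adjusted p = 0.12), Cyp2c39 (-0.54 ± 0.21, 0.292) and Cyp2c55 (-0.35 ± 0.16, 0.395) were not called, although their groups did not overlap (limma adjusted p values). Counting them, 7 members had groups that did not overlap, all lower in DEN/HFD, where 9.31% of all tested genes had such groups in either direction and 4.68% on the lower side. For Cyp2c55 and Cyp2c69, which passed the filter only with the chow MCOPPB livers, these shares are no independent measure. Cyp2c70 (-0.14 ± 0.27) had overlapping groups, and Cyp2c38 was the only member with a positive difference (0.63 ± 0.33, adjusted p = 0.467). The median over the members was -1.12, beside -0.0050 over all tested genes.
By the first RIN label these groups did not overlap (9.9 to 10 against 8.7 to 9.2), and with this label as a covariate no member and no other gene was called. The differences were then -3.29 ± 0.57 for Cyp2c40, -3.32 ± 0.61 for Cyp2c69 and -2.07 ± 0.86 for Cyp2c54 (adjusted p = 0.139, 0.188 and 0.342, limma). With the second RIN label (8.9 to 9.6 against 9.1 to 9.6), a covariate chosen after seeing the data, the same 3 members were called, at -3.34 ± 0.34, -2.88 ± 0.37 and -2.73 ± 0.52.

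**Figure D3:**
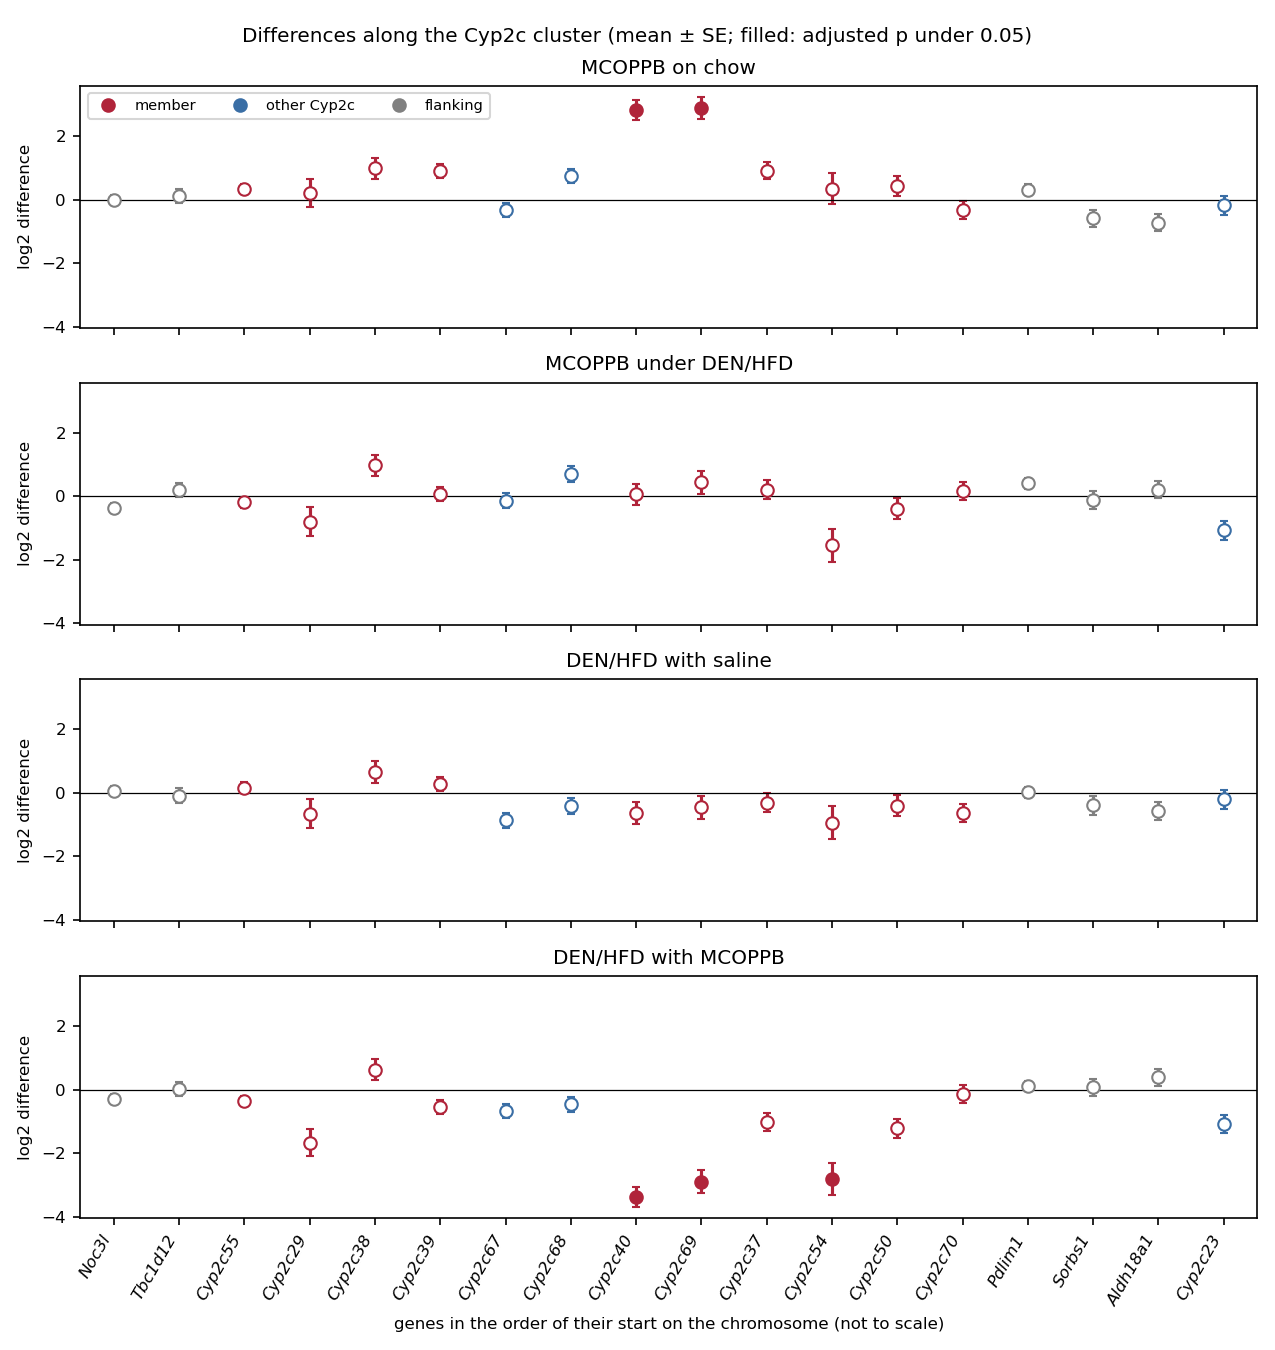
Log2 differences (points, with SE) for the tested Cyp2c genes and flanking genes in chromosomal order, in 4 comparisons; filled points have an adjusted p under 0.05. Only Cyp2c40 and Cyp2c69 are filled on chow, and Cyp2c40, Cyp2c69 and Cyp2c54 with MCOPPB; no flanking gene is filled.

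Over both treatments, DEN/HFD lowered Cyp2c40 (-2.07 ± 0.39, adjusted p = 0.0177), Cyp2c54 (-1.92 ± 0.41, 0.0296) and Cyp2c69 (-1.73 ± 0.37, 0.0301; limma), while 1.32% of all tested genes were called and 0.579% as lower. Again these shares are no independent measure for Cyp2c69, which passed the filter only with the chow MCOPPB livers. All 3 calls were lost without DEN/HFD MCOPPB replicate 2 and without DEN/HFD MCOPPB replicate 3, and 1 of them remained without DEN/HFD saline replicate 1. These values join unequal effects: for Cyp2c40 the difference was -0.63 with saline, not called, and -3.38 with MCOPPB. With the first RIN label as a covariate the values were -1.16 ± 0.57 for Cyp2c40, -0.94 ± 0.59 for Cyp2c54 and -1.19 ± 0.58 for Cyp2c69, none called (adjusted p = 0.561, 0.661 and 0.562). With the second label only Cyp2c40 was called (-2.001 ± 0.40, adjusted p = 0.0354). Without DEN/HFD saline replicate 4, 7 members were called: Cyp2c29 (-1.39), Cyp2c37 (-0.80) and Cyp2c50 (-0.98) lower and Cyp2c38 (0.82) higher, besides the 3 above. Calls also rose over all genes in that fit, to 460 of the 11568 tested genes from 153 in the main fit. Over both diets, no member was called for MCOPPB, where 0.372% of all tested genes were. An unadjusted p under 0.05 was found for 5 of the 10 members and for 752 of the 11568 tested genes. Cyp2c69 (1.71 ± 0.37, adjusted p = 0.0583), Cyp2c38 (0.97 ± 0.23, 0.0948) and Cyp2c40 (1.5 ± 0.39, 0.151; limma) came closest, and Cyp2c69 was called without DEN/HFD MCOPPB replicate 1.

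The members did not vary as one block. Across the 15 libraries, Pearson's r of the log2-scale values ranged from -0.63 to 0.97 over the 45 pairs, with a median of 0.47. These libraries carry the group differences. For deviations from the group means the median r was 0.06, with a range from -0.69 to 0.93. The pair Cyp2c50 and Cyp2c54, neighbours on opposite strands, had the highest r of deviations (0.93), and 0.90 without DEN/HFD saline replicate 4. Cyp2c40 and Cyp2c69 had r = 0.97 over the libraries and 0.75 for the deviations, and they share sequence as given above.
Cyp2c38 ran against 4 of the more abundant members. Its deviations correlated with those of Cyp2c54 at -0.69, Cyp2c50 at -0.69, Cyp2c70 at -0.68 and Cyp2c29 at -0.62. Part of this rested on a single animal: without DEN/HFD saline replicate 4 the values were -0.50, -0.43, -0.20 and -0.31 over 14 libraries. Correlations over so few libraries, which share depth and composition, are given as a description.

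**Figure D4:**
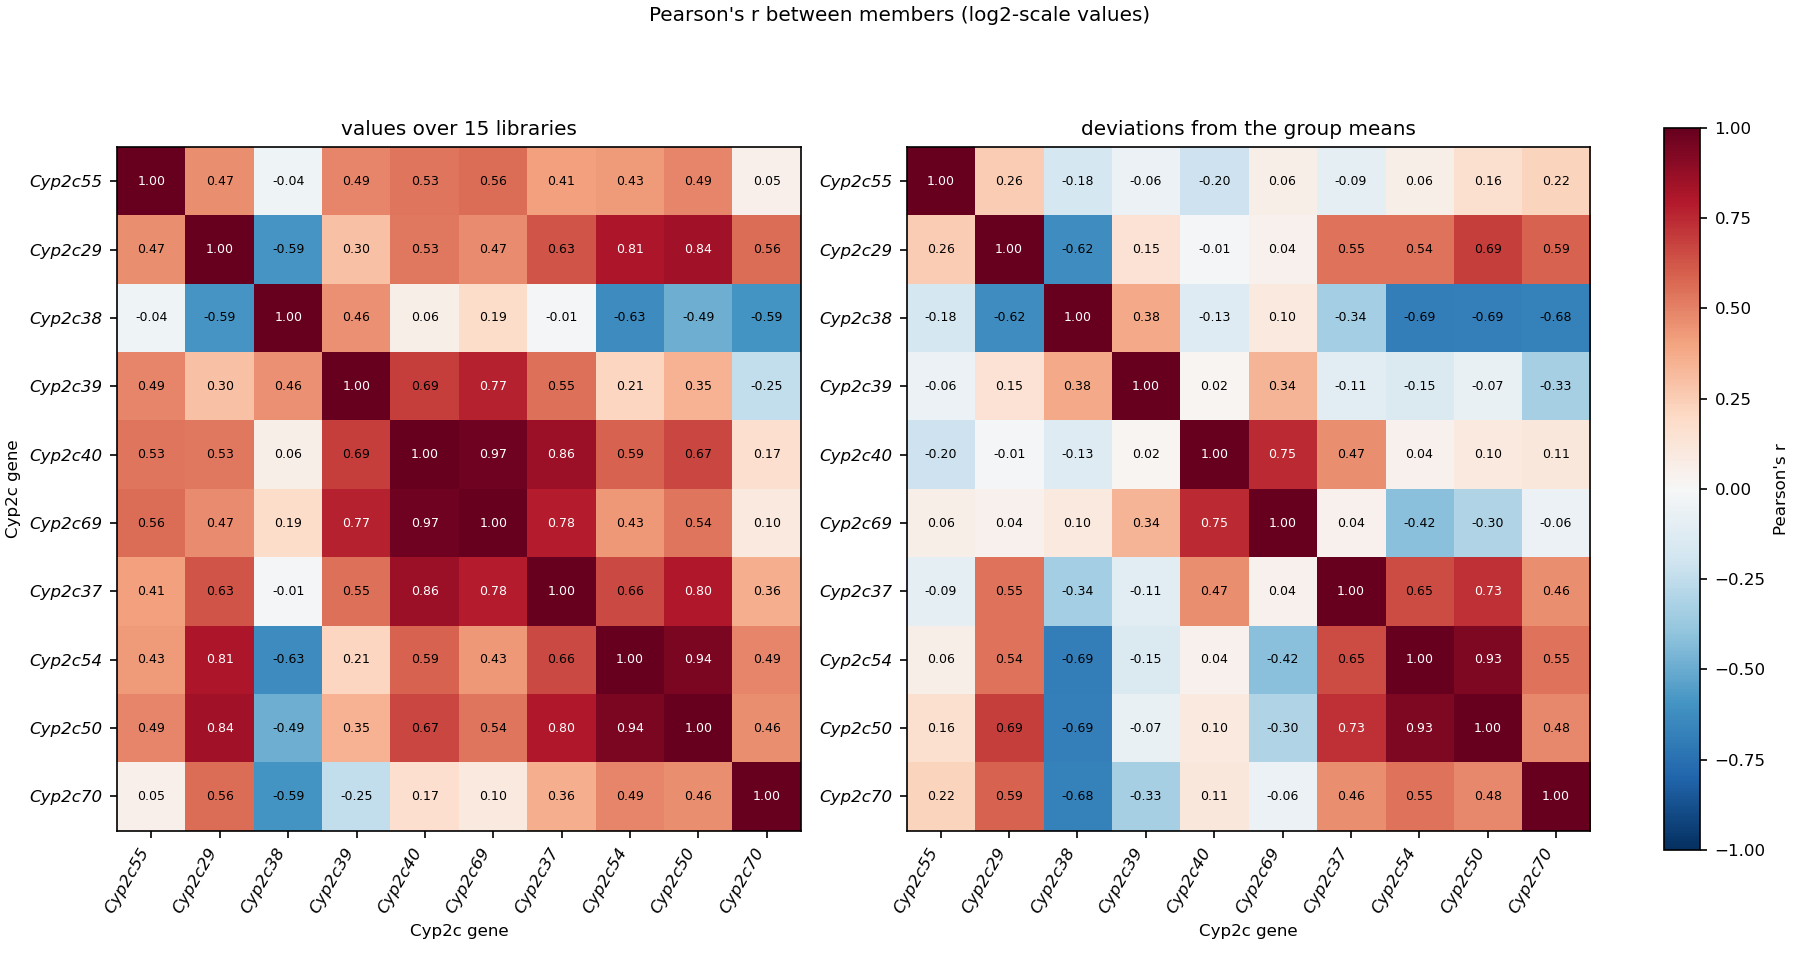
Pearson's r between each pair of the 10 members in chromosomal order, over the values of 15 libraries (left) and over deviations from the group means (right); red is positive and blue negative. Cyp2c40 with Cyp2c69 and Cyp2c50 with Cyp2c54 are dark red in both panels, and the row of Cyp2c38 is blue for Cyp2c29, Cyp2c50, Cyp2c54 and Cyp2c70.

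The genes outside the subfamily with the values most like those of the called members were found by Pearson's r over the 15 libraries. For Cyp2c40 they were Sult2a7 (r = 0.93), a sulfotransferase, Fmo2 (0.92), a flavin monooxygenase, and Acot3 (0.92), a peroxisomal acyl-CoA thioesterase. For Cyp2c69 they were Acot3 (0.93), Sult2a7 (0.92) and Acot4 (0.89). These values include the group differences: for deviations from the group means, Sult2a7 had r = 0.11 with Cyp2c40 and 0.21 with Cyp2c69, Fmo2 0.62 with Cyp2c40, and Acot3 0.53 and 0.58 with the pair. Acot3 averaged 182 ± 136 normalized counts in chow saline and 1136 ± 540 in chow MCOPPB livers, and under DEN/HFD 157 ± 72.1 with saline and 188 ± 70.9 with MCOPPB. For Cyp2c54 they were Hsd3b3 (0.93), a steroid dehydrogenase, Upb1 (0.90), an enzyme of pyrimidine breakdown, and Acsm1 (0.88), an acyl-CoA synthetase, with 0.86, 0.66 and 0.83 for the deviations.

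Of the 8 other Cyp2c genes, 3 passed the filter on low values: Cyp2c67 and Cyp2c68, which lie between Cyp2c39 and Cyp2c40, and Cyp2c23 further along the chromosome. None was called in the 4 comparisons of single groups. Cyp2c68, whose promoter window is 95.4% identical to that of Cyp2c40 over 216 aligned bases, averaged 2309 ± 351 normalized counts in chow saline and 3925 ± 646 in chow MCOPPB livers, a difference of 0.74 ± 0.23 (adjusted p = 0.285, limma). Cyp2c67 averaged 4345 ± 281 and 3457 ± 654 (-0.34 ± 0.22). Cyp2c67 was called only for DEN/HFD with treatments together (-0.76 ± 0.16, adjusted p = 0.0249), and not with the first RIN label (adjusted p = 0.482) nor without DEN/HFD saline replicate 2 or DEN/HFD MCOPPB replicate 2 or 3. Cyp2c23 averaged 1343 ± 430 in DEN/HFD MCOPPB against 2941 ± 1140 in DEN/HFD saline livers (-1.07 ± 0.30, adjusted p = 0.548). Of the 6 genes flanking the cluster, 5 passed the filter and none was called in any comparison.

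Genes that supply or control these enzymes were taken from fixed lists. Of 7 genes of electron donation and haem supply, 2 were lower in DEN/HFD MCOPPB than in chow MCOPPB livers: Por, the electron donor of all the members (-1.85 ± 0.28, adjusted p = 0.00280), and Alas1, the first enzyme of haem synthesis (-2.03 ± 0.41, adjusted p = 0.0289, limma). Both calls were lost with the first RIN label (-1.98 and -1.63, adjusted p = 0.273 and 0.354). That of Alas1 was also lost with the second label (0.0706) and without chow MCOPPB replicate 1, 3 or 5 or DEN/HFD MCOPPB replicate 2 or 3 (adjusted p from 0.0585 to 0.197). On chow, Por had a difference of 1.27 ± 0.28 (adjusted p = 0.0601) and groups that did not overlap. Among 22 listed regulators, Onecut1, which encodes HNF6, was called lower for DEN/HFD with treatments together (-0.84 ± 0.19, adjusted p = 0.0371), but not with the first RIN label (-0.60, adjusted p = 0.567) nor in 9 of 15 fits without 1 library. Neither list had a called gene on chow.
The receptor genes Nr1i3 (CAR; -1.16 ± 0.34, adjusted p = 0.146) and Nr1i2 (PXR; -0.38 ± 0.16, adjusted p = 0.331, limma) were not called between MCOPPB-treated groups, nor was Cux2, a female-predominant repressor, on chow (1.35 ± 0.41, adjusted p = 0.248). None of 10 bile acid enzymes was called in any comparison, and Cyp7a1, the rate-limiting enzyme of bile acid synthesis, had differences of 1.60 ± 0.48 on chow and -1.89 ± 0.48 between MCOPPB-treated groups (adjusted p = 0.246 and 0.0869). Of 11 epoxide hydrolases and Cyp2j epoxygenases, 5 passed the filter and none was called in any comparison.
Female-predominant liver genes outside the Cyp2c subfamily were called beside Cyp2c40 and Cyp2c69. Of 12 listed, 9 passed the filter. On chow MCOPPB raised 5 of them, Cyp2b9 (5.50 ± 0.29), Cyp2a4 (3.74 ± 0.70), Cyp2b13 (2.82 ± 0.22), Acot3 (2.24 ± 0.36) and Sult3a1 (1.13 ± 0.18), and the median difference of the 9 was 1.32 beside 0.0012 over all tested genes. Of these, Cyp2b9 and Cyp2b13 were called in each fit without 1 library; Acot3 was lost without chow saline replicate 2 or 3, Sult3a1 without chow saline replicate 3, and Cyp2a4 without chow saline replicate 2 or 3 or chow MCOPPB replicate 5. Sult3a1 and Cyp2a4 were also lost with the first RIN label.
Of 12 male-predominant genes, 6 were lower on chow with MCOPPB and none higher, with a median of -2.87: Mup20 (-4.31), Hsd3b5 (-4.30), Slco1a1 (-3.47), Cyp4a12b (-2.96), Elovl3 (-2.78) and Cyp2u1 (-1.13). The calls of Hsd3b5, Slco1a1 and Cyp2u1 were lost with the first RIN label. Without 1 library that of Hsd3b5 was lost in 2 of 15 fits, of Slco1a1 in 8 and of Cyp2u1 in 7. Those of Slco1a1 and Cyp2u1 were also lost without a filter, with library weights and with the second RIN label. With saline, DEN/HFD livers were higher than chow livers in Cyp2b9 (2.57 ± 0.31, adjusted p = 0.00198) and lower in Cyp4a12b (-2.18 ± 0.36, adjusted p = 0.0303, limma). Under DEN/HFD, MCOPPB raised the female-predominant Cyp17a1 (1.64 ± 0.26, adjusted p = 0.0312). That call was lost with quantile normalization, the second RIN label and a replicate block (adjusted p = 0.0502, 0.486 and 0.114, limma). Without 1 library the call of Cyp4a12b with saline was lost in 7 of 15 fits and that of Cyp17a1 in 8, and Cyp4a12b was lost with the first RIN label. Cyp4a12b with saline was also lost without a filter, with library weights and with log2 of normalized counts plus 1 or plus 10.
Between MCOPPB-treated groups, Acot3 (-2.11), Cyp2b9 (-1.37), Cyp2b13 (-1.08) and Sult3a1 (-0.998) were lower in DEN/HFD and Elovl3 (2.18) and Mup20 (3.47) higher. All 6 calls were lost with the first RIN label. Leaving out 1 library ended that of Cyp2b9 in 10 of 15 fits, of Cyp2b13 in 5, of Sult3a1 in 3 and of Acot3 in 1.
Of 10 targets of CAR and PXR, 2 were higher on chow, Slco1a4 (1.53 ± 0.20), an organic anion transporter, and Abcb1a (1.30 ± 0.22), a drug efflux pump. Slco1a4 was not called with the first RIN label (1.30, adjusted p = 0.110), nor Abcb1a without chow saline replicate 2 or 3 (1.02 and 1.38, adjusted p = 0.0683 and 0.0506). Between MCOPPB-treated groups Slco1a4 was lower in DEN/HFD (-1.40 ± 0.20, adjusted p = 0.00183), and over both treatments Ces2a, a carboxylesterase, was lower in DEN/HFD (-0.98 ± 0.20, adjusted p = 0.0233). Both calls were lost with the first RIN label. These lists were compiled with earlier results of these data known, so their counts are not independent evidence of a direction.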

How the data were processed

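Livers of 15 mice were profiled by RNA-seq (directional libraries from 250 ng of total RNA, single reads of 75 nt, per the labels' protocols). The submitters' processing notes name DESeq2, HTSeq, STAR 2.7.0e and Trimmomatic and the build GRCm38 (mm10); roles and settings are not given in the sources used here. The authors deposited variance-stabilised values on a log2 scale, which shrinks the differences of scarce genes. The transformation was inverted to normalized counts; whole reads were not recovered, so depths are estimates (9320000 to 18700000 reads) and no counting interval is given.

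Genes at least 1 (log2) above the lowest value, 22.5 normalized counts, in at least 3 libraries were kept. Among others, Cyp2c55, Cyp2c69 and the listed Sult3a1 passed only with the chow MCOPPB livers, where their means were highest. For such genes the shares over tested genes are no independent measure. Tests used limma 3.58.1 (R 4.3.3): 4 group means over 15 libraries, a mean-variance trend, and Benjamini-Hochberg adjustment over the 11568 kept genes, with calls at an adjusted p under 0.05; p values are two-sided. Effects over both diets or both treatments came from an additive model. The fit was tested on simulated data. Groups came from the sample titles.

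The members, gene lists and tests were chosen with earlier results of these data known. All members were named, and of each list the called genes and up to 3 others of smallest p, except 1 gene of a list that is not reported here; Cyp2c23, Cyp2c67 and the averages of Acot3 were added after their values were seen. Levels per kb used the longest coding transcript of GENCODE M21. Identities were computed with Biopython 1.88. Promoters came from a RefSeq table. Alternatives covered the filter, scale, normalization, covariates, library weights, a replicate block and leaving out each library.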

Additional observations from a re-analysis of the deposited data

Results flagged for a closer look

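Of 20 member and group pairs with 4 or 5 libraries, 2 held a library far from the others; chance flags about 1 in 20 groups. Cyp2c38 in DEN/HFD saline replicate 4 stood at 326 normalized counts, with the other 3 livers of the group between 1080 and 1337. Cyp2c39 in chow MCOPPB replicate 3 stood at 79.7 normalized counts, with the other 4 between 41.5 and 49.3.

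The MCOPPB effect on Cyp2c40 differed between the diets, by -2.74 on the log2 scale (DEN/HFD minus chow; adjusted p = 0.0394 for the difference itself, limma). The cause of these values was not tested.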

How the results depend on the processing

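For MCOPPB on chow, MCOPPB under DEN/HFD and DEN/HFD with saline, the alternatives gave the same number of members called (2, 0 and 0), except 3 on chow in 1 fit without a library. For DEN/HFD with MCOPPB the 3 calls became 0 with the first RIN label, 5 with library weights and 2 to 5 without 1 library. Among all tested genes, 66 were called in the main fit, 285 with library weights and 18 to 157 without 1 library. The 1 call for the difference of MCOPPB effects became 0 without a filter, with the replicate block, with either RIN label and with log2 of normalized counts plus 1 or plus 10, and 0 to 2 without 1 library. For MCOPPB with diets together the count of 0 became 1 with either of those log2 scales and 0 to 1 without 1 library. For DEN/HFD with treatments together the 3 calls became 1 without a filter or with the second RIN label, 0 with the first, 5 with library weights and 0 to 7 without 1 library. Among all tested genes, 153 were called in this main fit, 392 with library weights and 6 to 460 without 1 library. The second RIN label was added after seeing the data.

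Signs turned only for members that were not called in the comparison concerned. With the first RIN label these were Cyp2c54 on chow (-0.22), and over both diets or treatments Cyp2c50 (-0.20), Cyp2c55 (-0.048 for MCOPPB, 0.083 for DEN/HFD) and Cyp2c70 (0.036; 0.10 with the second label). Library weights turned Cyp2c50 (-0.032) and Cyp2c70 (0.014) for MCOPPB over both diets, and quantile normalization Cyp2c38 in the difference of effects (0.057). Without 1 library, the lowest and highest values of the turning members were -0.14 and 0.51 for Cyp2c29 on chow, -0.029 and 0.15 for Cyp2c39 and -0.040 and 0.24 for Cyp2c40 under DEN/HFD, -0.43 and 0.17 for Cyp2c38 in the difference of effects, and -0.091 and 0.18 for Cyp2c50 and -0.18 and 0.0089 for Cyp2c70 for MCOPPB over both diets. The cause was not tested.

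The replicate numbers of the labels gave no sign of pairing the animals, although so few libraries cannot settle this. Of 19 pairs of libraries with the same number, 5 had deviations correlated above 0.1. The mean of the 19 was -0.0273 beside 0.00838 for 64 other pairs, and 1 of 15 libraries correlated best with its own number. With the replicate block 2 members were called for DEN/HFD with treatments together, 0 for the difference of effects, and as many as before in the other comparisons; Cyp2c70 in DEN/HFD with MCOPPB had a value of 0.017. Among the listed genes named, the block ended the calls of Por (adjusted p = 0.0685), Alas1 (0.15), Acot3 (0.104), Cyp2b13 (0.104), Cyp2b9 (0.0685) and Sult3a1 (0.0698) in DEN/HFD with MCOPPB, and on chow those of Acot3 and Abcb1a (0.0670 each), Cyp2a4 (0.141), Slco1a1 (0.105) and Cyp2u1 (0.175). For MCOPPB under DEN/HFD the block also ended the call of Cyp17a1 (adjusted p = 0.114, limma). Depth limits Cyp2c39, Cyp2c55 and, outside chow MCOPPB livers, Cyp2c69, which rest on few reads.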

Other observations

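Cyp2c53-ps, a transcribed pseudogene that overlaps Cyp2c29 by 5581 bases on the same strand and did not pass the filter on low values, stood at 3.64 to 8.49 normalized counts in the 3 chow saline livers and at 0 in the other 12 livers. Cyp2c29 was abundant in all groups. The value was noticed after seeing the data and was not tested.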
